A study of Homo sapiens with 2 samples.

Results

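The genes examined were 10 genes of iron uptake, storage and export (FTH1, FTL, TF, TFRC, TFR2, HAMP, HFE, SLC40A1, SLC11A2 and HP), taken by symbol from the 58174 genes listed for each library. All 10 symbols matched 1 gene each. The libraries came from PLC-8024, a human hepatocellular carcinoma (HCC) cell line. PLC-8024-GDF1 cells (GDF1 cells below) carried a lentiviral construct of human GDF1, which encodes a secreted ligand of the TGF-β superfamily, and PLC-8024-CTR cells (control cells) carried the control vector, and stably transduced cells were selected with puromycin. Each group had 1 poly-A RNA-seq library, so no difference below has a replicate check or a test, and every statement describes these 2 libraries only. Values are TPM, a transcript abundance scaled by transcript length and library total. They can be compared between genes, but they keep no sequencing depth, so no counting error is given.

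Cells take up iron mainly as transferrin, which binds transferrin receptors and is carried into endosomes, where the metal is reduced and moved into the cytosol. Surplus iron is stored inside shells of ferritin heavy and light chains or leaves through ferroportin, the iron exporter. The liver makes transferrin, haptoglobin and hepcidin, the hormone that causes ferroportin to be degraded, and hepcidin transcription is known to follow BMP signals through SMAD proteins. Cells also adjust many of these genes after transcription. Iron regulatory proteins bind a short hairpin, the iron-responsive element (IRE), when iron is scarce. In a 5′ UTR this binding blocks translation, and in the 3′ UTR of TFRC it protects the mRNA from decay.

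The IRE hairpins are shown because 6 of the 10 genes hold a match, FTL, FTH1 and SLC40A1 in the 5′ UTR and TFRC, SLC11A2 and TF in the 3′ UTR. TFRC and SLC11A2 fell over 2-fold and TF did not. UTRs of the annotated transcripts were searched for an unpaired C, 5 bases, a loop of 6 bases reading CAGTGN and 5 bases that pair with the first 5, with at most 1 unpaired base in the second arm. Only the transcript strand was searched. The sequences below are the RNA-sense strand of GRCh37 (hg19), written as DNA, and the capitals mark the loop.
FTL, 5′ UTR, chr19:49468592-49468620, plus strand: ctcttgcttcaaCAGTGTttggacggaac
FTH1, 5′ UTR, chr11:61735046-61735074, minus strand: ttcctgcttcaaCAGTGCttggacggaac
SLC40A1, 5′ UTR, chr2:190445387-190445415, minus strand: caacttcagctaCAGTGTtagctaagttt
SLC11A2, 3′ UTR, chr12:51382051-51382080, minus strand: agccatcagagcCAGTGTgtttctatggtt
TFRC, 3′ UTR, chr3:195777850-195777878, minus strand: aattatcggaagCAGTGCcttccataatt
TFRC, 3′ UTR, chr3:195777446-195777474, minus strand: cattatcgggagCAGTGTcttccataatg
TFRC, 3′ UTR, chr3:195777381-195777409, minus strand: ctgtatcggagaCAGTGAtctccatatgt
TFRC, 3′ UTR, chr3:195777334-195777362, minus strand: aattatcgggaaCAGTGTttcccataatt
TF, 3′ UTR, chr3:133511517-133511545, plus strand: tgaatgcattttCAGTGAaagattataac

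The FTH1 and FTL sequences were identical at 26 of 29 bases, whereas FTH1 and SLC40A1 shared 13 of 29. The search found 4 hairpins in the TFRC mRNA, the first of them 944 bases after the last coding base and the last 1460 bases after it. Hairpins that depart from the searched form would be missed. SLC11A2 held 1 hairpin, 37 bases after its last coding base, with an unpaired base in the second arm. Of the annotated coding transcripts, 13 of 16 for TFRC, 6 of 24 for SLC11A2 and 1 of 5 for SLC40A1 contained a hairpin, and gene-level TPM does not separate them. A fully paired hairpin also occurred in the 3′ UTR of TF, in 1 of 7 coding transcripts and 14062 bases after the last coding base of an mRNA annotated with 18024 bases of 3′ UTR. No match was found in TFR2, HFE, HAMP or HP. Among genes that reached 1 TPM in a library, a fully paired hairpin was found in the 5′ UTR of 0.0941% of 11687 genes and in the 3′ UTR of 0.716% of 11724 genes. With the hairpins that have 1 unpaired base the shares were 0.222% and 1.61%. Of the 84 genes with a fully paired hairpin in the 3′ UTR, TFRC was the 1 with 3 or more. A match describes the letters only.

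The transcript of GDF1 itself had 2.1 TPM in control cells and 4.64 TPM in GDF1 cells, and CERS1, whose annotated exons hold 100% of the GDF1 coding bases, was at 13.3 and 9612 TPM. Changes are given as log2 of (TPM + 1) in GDF1 cells over (TPM + 1) in control cells, and a gene is said to have risen or fallen where this passed 1 in size, a 2-fold change. The pseudocount of 1 TPM shrinks the change of genes near or under 1 TPM. Of the 14929 genes that reached 1 TPM in one or both libraries, 1434 fell (9.61%) and 720 rose (4.82%), and the median change was -0.20. When the TPM of GDF1 cells were rescaled by 1.15 (0.21 on the log2 scale) to centre the genes at 5 TPM or more, 1022 fell and 1040 rose. All 8 genes on the hepatocyte list were above 1 TPM in control cells, and ALB, APOA1, TTR, HNF4A and AFP fell in GDF1 cells. AFP is a gene of the fetal liver, which the study counts as a progenitor marker and not as a hepatic one. The study reports by qPCR that GDF1 raised its progenitor markers in PLC-8024 cells. It also reports dedifferentiation at the protein level, by western blot and by staining of xenograft tumours. In the 2 libraries here AFP RNA went the other way, from 31.4 to 9.75 TPM (log2 change -1.59). The study's other progenitor markers (EPCAM, KRT19, SOX9 and KRT7) were not examined here, so AFP does not stand for the set. HNF4A was within 2-fold with rescaled TPM (-0.84) and with the trend with GC content removed (-0.91), and ALB in the latter (-0.77). The summed level of the 8 went from 8089 to 4684 TPM, most of it SERPINA1, which went from 5308 to 2915 TPM and stayed within 2-fold (-0.86). APOB (-0.74) and FGB (-0.39) also stayed within 2-fold. Of the macrophage markers, CD68 alone reached 1 TPM (33.1 and 13.2 TPM, log2 change -1.26), PTPRC and MARCO were listed at 0.0001 TPM, the value that stands for 0, in both libraries, and CD163 was at 0.11 TPM or less.

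Of the 10 iron genes, TFRC and SLC11A2 fell in GDF1 cells (TFRC alone after rescaling, or after removal of the trend with GC content), none rose, and 8 stayed within 2-fold. In bulk RNA, fewer cells that express a gene and less of its RNA per cell cannot be told apart. The share that fell was 20.0% of 10 genes beside 9.61% of all genes, and with so few genes this is a count and no more. The median log2 change of the 10 was -0.10, beside -0.20 for all genes. All 10 reached 1 TPM, HP through control cells alone. The genes kept the same order of level in both libraries, from FTL at the top through FTH1, TF, TFRC, SLC11A2, HAMP, SLC40A1, HFE and TFR2 to HP. The spread between replicates is unknown, so neighbours as close as HFE and TFR2 cannot be ordered.

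**Figure D1:**
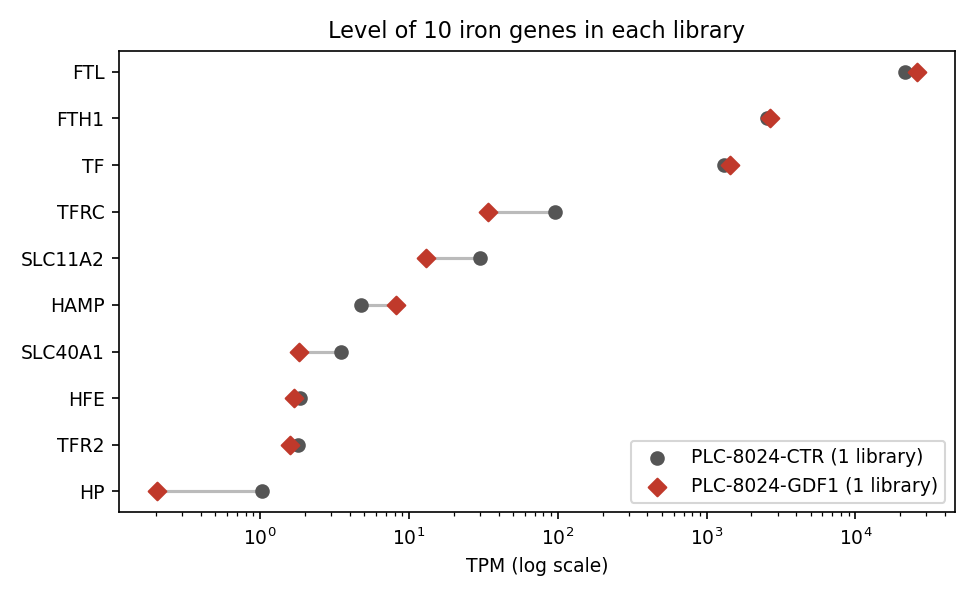
TPM on a log scale of the 10 iron genes in PLC-8024-CTR (grey circles) and PLC-8024-GDF1 (red diamonds), 1 library each, joined by a line per gene. TFRC goes from 95.5 to 34.1 TPM and SLC11A2 from 29.9 to 13.1 TPM, while the points of FTL, FTH1 and TF lie close together at the top of the scale.

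Among the uptake genes, TFRC encodes transferrin receptor 1, which takes transferrin-bound iron into most dividing cells. TFRC (ENSG00000072274, chr3:195739382-195809024, minus strand) was at 95.5 TPM in control cells and 34.1 TPM in GDF1 cells. Its log2 change was -1.46, a TPM ratio of 0.357, and only 3.50% of all genes with at least 1 TPM had a lower change. It was the 1414th most abundant gene in control cells and the 3018th in GDF1 cells. The fall stayed past 2-fold with rescaled TPM (-1.26) and after the trend with GC content was removed (-1.06).

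SLC11A2 encodes DMT1, the transporter that moves iron out of the endosome after transferrin has been taken up. SLC11A2 (ENSG00000110911, chr12:51373184-51422349, minus strand) was at 29.9 TPM in control cells and 13.1 TPM in GDF1 cells. Its log2 change was -1.14, a TPM ratio of 0.437, and 6.82% of all genes had a lower change. This change lay close to the threshold, and it was within 2-fold with rescaled TPM (-0.94) and with the GC trend removed (-0.77).

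TFR2 (ENSG00000106327, chr7:100218039-100240402, minus strand) encodes transferrin receptor 2, which in hepatocytes is thought to act as a sensor of transferrin saturation more than as an importer. It was at 1.79 TPM in control cells and 1.59 TPM in GDF1 cells, a log2 change of -0.11. In control cells the level of TFRC was 53.2 times that of TFR2, and in GDF1 cells it was 21.5 times. TF (ENSG00000091513, chr3:133464884-133515485, plus strand) encodes transferrin, the plasma iron carrier. TF was at 1318 TPM in control cells and 1434 TPM in GDF1 cells, a log2 change of 0.12, so the ratio of TF to TFRC was 13.8 in the control library and 42.1 in the GDF1 library. TF overlaps SRPRB on the same strand, which was at 46.0 and 55.7 TPM, and some reads could be assigned to either gene. FTH1, HFE and HP overlap BEST1, H2BC4 and TXNL4B on the other strand, and the sources used here do not say whether counting used strand, so these values carry the same limit.

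The storage genes were among the most abundant transcripts of these cells. FTL (ENSG00000087086, chr19:49468566-49470136, plus strand), the ferritin light chain, was at 21437 TPM in control cells and 25864 TPM in GDF1 cells, and it ranked 3rd and 2nd of all genes. Its log2 change was 0.27, and its share of all TPM was 2.14% and 2.59%. FTH1 (ENSG00000167996, chr11:61727190-61735106, minus strand), the ferritin heavy chain that carries the ferroxidase activity, was listed at 2553 and 2666 TPM, with a log2 change of 0.06. The light chain mRNA was thus 8.40 times as abundant as the heavy chain mRNA in the control library and 9.70 times in the GDF1 library. Together the 2 ferritin mRNAs stood at 251 times the TFRC mRNA level in control cells and at 838 times in GDF1 cells. Protein was not measured in these libraries.

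Ferritin genes have many processed pseudogenes to which reads could be assigned. The 25 listed FTH1 pseudogenes added up to 66.3 TPM in control cells and 81.1 TPM in GDF1 cells, which was 2.60% and 3.04% of the FTH1 level. The 14 FTL pseudogenes added up to 4.51 and 4.14 TPM. With the pseudogenes added, the log2 change was 0.07 for FTH1 and 0.27 for FTL.

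Export and its hormonal control were listed at low levels. SLC40A1 (ENSG00000138449, chr2:190425316-190448484, minus strand) encodes ferroportin, the exporter that hepcidin acts on. It was at 3.51 TPM in control cells and 1.81 TPM in GDF1 cells, a log2 change of -0.68 that did not pass 2-fold. HAMP (ENSG00000105697, chr19:35771619-35776046, plus strand), which encodes hepcidin, was at 4.74 TPM in control cells and 8.22 TPM in GDF1 cells. Its log2 change of 0.68 was the highest among the 10 genes, and 90.6% of all genes had a lower change, but it also stayed within 2-fold (0.87 with rescaled TPM). The ratio of HAMP to SLC40A1 was 1.35 in the control library and 4.53 in the GDF1 library.

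HFE (ENSG00000010704, chr6:26087509-26098571, plus strand), the haemochromatosis protein that binds transferrin receptor 1 and takes part in hepcidin control, was at 1.86 TPM in control cells and 1.69 TPM in GDF1 cells. Its log2 change was -0.09. HP (ENSG00000257017, chr16:72088404-72094954, plus strand), which encodes haptoglobin, the plasma protein that captures free haemoglobin, was at 1.02 TPM in control cells and 0.203 TPM in GDF1 cells. The log2 change of HP was -0.75 with the pseudocount of 1 TPM and -2.33 as a plain TPM ratio, so its side of the threshold depended on the scale. Its paralog HPR, which could share reads with it, was at 0.316 and 0.129 TPM, and with both added up the log2 change was -0.81. TF, HP, HAMP and TFR2 are hepatocyte products. Their log2 changes were 0.12, -0.75, 0.68 and -0.11, and those of the hepatocyte markers are given above. The part of the marker change in these values was not tested.

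**Figure D2:**
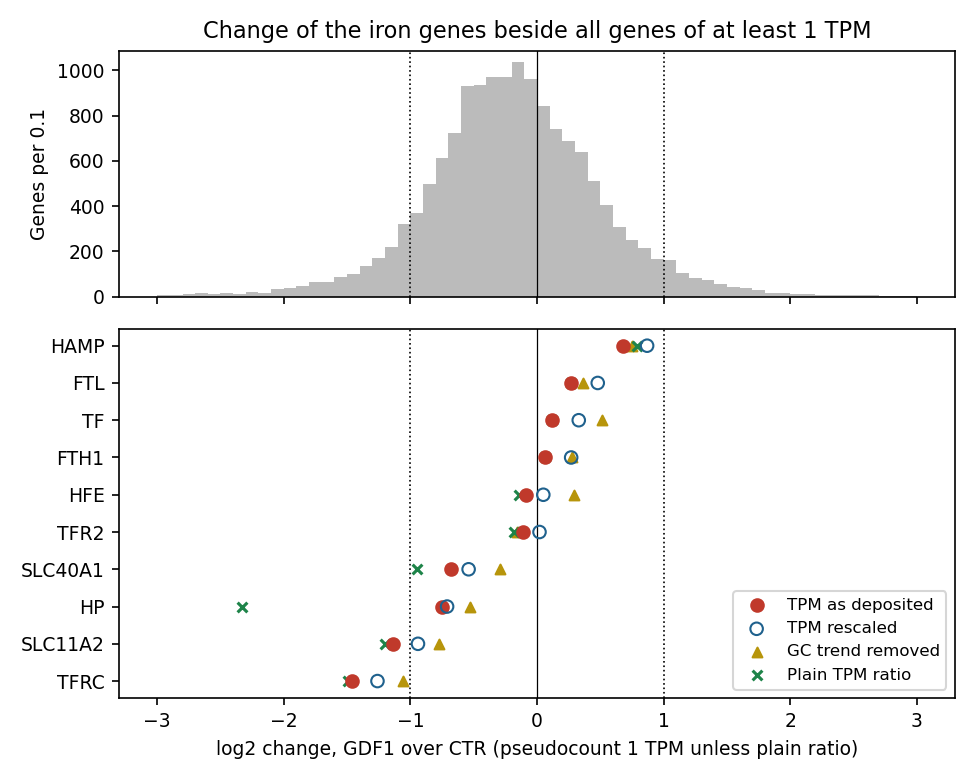
Top, number of genes per 0.1 of log2 change among the genes with at least 1 TPM, drawn between -3 and 3 and centred below 0. Bottom, log2 change of each iron gene with TPM as deposited (red), TPM rescaled (open blue circles), the GC trend removed (triangles) and the plain TPM ratio (crosses), with dotted lines at 2-fold. TFRC stays past the left line under all 4 scales, SLC11A2 under 2 of them, and HP passes it only as a plain ratio, at -2.33.

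The direction of the changes shifted with transcript GC content across the libraries. In the quintile of genes with the lowest GC content, up to 41.7%, the median log2 change was -0.45, 12.7% fell and 2.12% rose. In the quintile with the highest GC content the median was 0.11, 4.99% fell and 8.57% rose. TFRC, at 40.9% GC, and SLC40A1, at 41.4%, lay in the lowest quintile, and SLC11A2, at 43.1%, lay in the next, where 12.2% of genes fell. TF at 41.8% and HFE at 42.6% had similar GC content to these and log2 changes of 0.12 and -0.09. The GC content of TF, and so its quintile and trend, is that of a canonical transcript of 20166 bases, 18024 of them 3′ UTR. Whether these cells express that form was not tested. FTL and HAMP, which had the highest changes, lay in the next to highest quintile at 56.0% and 57.4%. The part of GC content in the changes was not tested.

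By the place of the hairpin, the 3 genes with a 5′ UTR match changed by 0.27 (FTL), 0.06 (FTH1) and -0.68 (SLC40A1) on the log2 scale, and none passed 2-fold. TFRC and SLC11A2, with matches in the 3′ UTR, changed by -1.46 and -1.14, and TF, with its match far down a long 3′ UTR, by 0.12. Over all genes, none of the 11 with a fully paired hairpin in the 5′ UTR passed 2-fold, with a median of 0.00. Of all genes 9.61% fell and 4.82% rose, and with only 11 genes this is a count and no more. Of the 84 with a fully paired hairpin in the 3′ UTR, 9 fell (10.7%, beside 9.61% of all genes), 2 rose, and the median was -0.27, beside -0.20. TFRC, FTL, FTH1, SLC40A1 and TF are themselves among these genes.

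The proteins that read the hairpins were examined next. ACO1 encodes iron regulatory protein 1, which is the cytosolic aconitase when it holds an iron-sulphur cluster, and it was at 17.3 TPM in control cells and 10.8 TPM in GDF1 cells (log2 change -0.63). IREB2, which encodes iron regulatory protein 2, was at 10.2 and 5.63 TPM (log2 change -0.75). FBXL5, the ubiquitin ligase subunit that has iron regulatory proteins degraded when iron is plentiful, was at 6.32 and 8.95 TPM (log2 change 0.44). None of the 3 passed 2-fold.

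The wider iron pathway was followed in 68 other genes grouped by role, of which 60 reached 1 TPM in a library. Of these 60, 10 fell (16.7%), 1 rose (1.67%) and 49 stayed within 2-fold, with a median log2 change of -0.31. All genes had 9.61% fallen and 4.82% risen, with a median of -0.20. With rescaled TPM or the GC trend removed, 5 of the 60 fell and 2 rose (STEAP3 and LYRM4). Over all genes, 1022 of 14929 fell and 1040 rose with rescaled TPM, and 874 of 14640 fell and 914 rose with the GC trend removed. SMAD7, HEPH, HPX and FECH fell under both settings, CISD2 with rescaled TPM alone and PCBP1 with the GC trend removed alone. SMAD7 and HEPH were under 1 TPM in GDF1 cells, at 0.43 and 0.35 TPM.

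Of 6 other genes of the transferrin cycle and of iron uptake without transferrin, 1 rose (16.7%, beside 4.82% of all genes) and none fell. STEAP3, the endosomal reductase that prepares iron for DMT1, rose from 3.87 to 9.40 TPM (log2 change 1.10), the opposite direction to both TFRC and SLC11A2. It stayed past 2-fold with rescaled TPM (1.28) and with the GC trend removed (1.17). The genes that take up iron not bound to transferrin, SLC39A14 and the ferritin receptor SCARA5, were at 5.35 and 2.68 TPM and at 13.5 and 7.39 TPM, and both had log2 changes of -0.79.

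Of 5 genes for iron chaperones, ferritin turnover and mitochondrial import, 2 fell (40.0%, beside 9.61% of all genes). PCBP1, an RNA-binding protein that also delivers iron to ferritin, went from 285 to 127 TPM (log2 change -1.16), and its relative PCBP2 from 246 to 119 TPM (-1.05). Both were within 2-fold with rescaled TPM, at -0.95 and -0.84, and with the GC trend removed PCBP1 was past it at -1.05 and PCBP2 within it at -0.82. NCOA4, the receptor that takes ferritin to the lysosome, was at 18.3 and 10.4 TPM, a log2 change of -0.76.

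Of 9 hepcidin control genes, 3 fell (33.3%, beside 9.61% of all genes) and none rose. SMAD7, an inhibitory SMAD that restrains BMP and TGF-β signals, fell from 3.77 to 0.43 TPM (log2 change -1.74). ACVR1, a type I receptor for BMPs, went from 6.69 to 2.57 TPM (-1.11), and NEO1, a coreceptor partner, from 8.72 to 3.54 TPM (-1.10). With rescaled TPM, SMAD7 was at -1.68, and ACVR1 and NEO1 were within 2-fold at -0.95 and -0.93, as they were with the GC trend removed (-0.89 and -0.86). TMPRSS6, the protease that dampens hepcidin transcription, was at 9.18 and 4.69 TPM (-0.84). BMP6, the main BMP ligand of hepcidin control, was at 22.1 and 17.4 TPM (-0.32), and ID1, a common target of BMP signals, was at 2107 and 2680 TPM (0.35).

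Iron leaving through ferroportin is oxidised by copper ferroxidases. HEPH, hephaestin, fell from 3.0 to 0.35 TPM (log2 change -1.56, and -1.51 with rescaled TPM). CP, ceruloplasmin, the plasma ferroxidase made by the liver, was at 189 and 118 TPM (-0.67).

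Of 9 genes that handle haem and haemoglobin, 2 fell (22.2%, beside 9.61% of all genes). HPX, the plasma haem carrier hemopexin, fell from 16.3 to 6.59 TPM (log2 change -1.19), and ABCG2, an efflux pump that can carry haem, from 8.95 to 3.86 TPM (-1.04). With rescaled TPM, HPX was at -1.01 and ABCG2 within 2-fold at -0.87, and with the GC trend removed they were at -1.09 and -0.61. HMOX1, haem oxygenase 1, which breaks haem down and frees its iron, was at 88.5 and 75.8 TPM (-0.22).

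Among 8 genes of haem synthesis, only FECH passed 2-fold (12.5%, beside 9.61% of all genes that fell). FECH, the ferrochelatase that inserts iron into the haem ring, fell from 10.9 to 2.99 TPM (log2 change -1.57), and it stayed past 2-fold with rescaled TPM (-1.41) and with the GC trend removed (-1.22). ALAS1, the first enzyme of the pathway in liver cells, was at 54.8 and 29.4 TPM (-0.88), and PPOX, the enzyme before FECH, at 37.7 and 54.3 TPM (0.51). In iron-sulphur cluster assembly, 1 of 18 genes passed 2-fold (5.56%). That gene was CISD2, which encodes an iron-sulphur protein of membranes, and it fell from 19.7 to 7.49 TPM (-1.28, and -1.10 with rescaled TPM). With the GC trend removed it was within 2-fold (-0.84). The scaffold ISCU was at 54.2 and 41.0 TPM (-0.39), and the median of the 18 was -0.20.

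**Figure D3:**
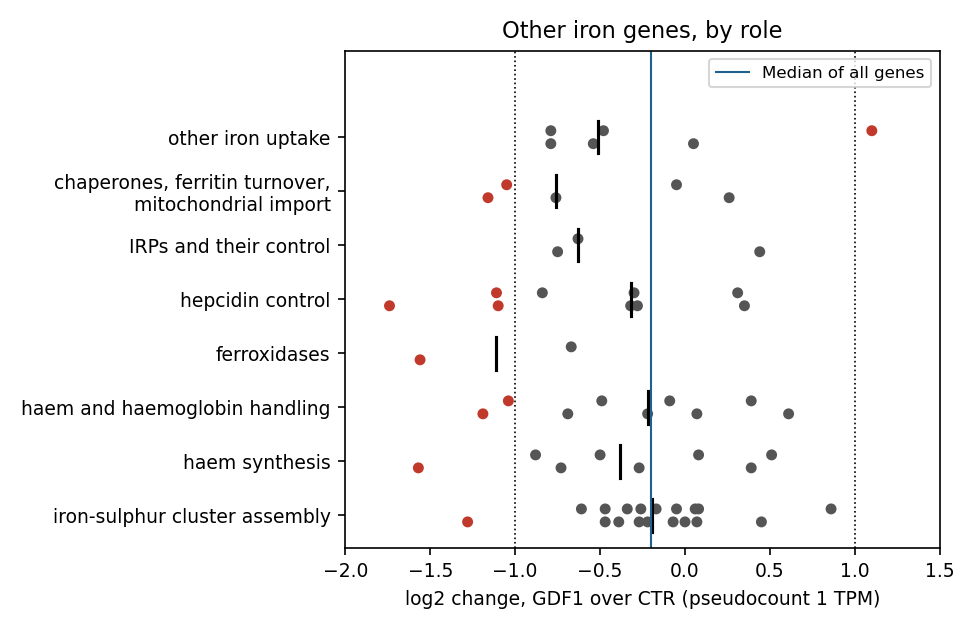
Log2 change of the 60 other iron genes with at least 1 TPM, 1 point per gene by role, with genes past 2-fold in red, black bars at each group's median, and a blue line at the median of all genes (-0.20). STEAP3 at 1.10 is the single point past the right dotted line, and 10 points lie past the left one.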

How the data were processed

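Per the labels and the study's methods, the authors filtered paired-end reads with Trimmomatic 0.36, aligned them to hg19 with HISAT2 2.1.0 and quantified them with StringTie 1.3.3b. The methods name the RefSeq refGene annotation, whereas the files list Ensembl identifiers, so the gene models behind the TPM are uncertain. The authors deposited TPM values for 58174 genes per library, with 0.0001 in place of 0. The values sum to 999990 and 999995, so depth is unknown. Samples were grouped by title. Differential expression by DEGseq was not repeated, since no read counts were used here.

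Log2 changes used a pseudocount of 1 TPM. A gene entered a count where it reached 1 TPM in one or both libraries, with a 2-fold threshold. Positions, GC content (canonical transcript, otherwise the longest) and UTRs came from GENCODE v44 on GRCh37, the build of the files, which held 55726 of the identifiers. HJV was matched through its identifier. The GC trend was a lowess fit (span 0.3) over 14640 genes. Python 3.11.15, numpy 2.4.6, pandas 2.3.3, statsmodels 0.14.6 and matplotlib 3.10.9 were used, and the scripts were tested on simulated data.

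The members and lists were chosen with earlier results of these data known. Named genes were the 10 members, listed iron genes past 2-fold, ACO1, IREB2, FBXL5, NCOA4, CP, TMPRSS6, HMOX1, GDF1 and CERS1, with HPR and the ferritin pseudogenes as copies. Marker genes came from fixed cell type lists, and those named from them, SRPRB and the other overlapping genes, SLC39A14, SCARA5, BMP6, ID1, ALAS1, PPOX, ISCU and LYRM4 were picked after their values were seen, as was the hairpin search. Since 2 libraries give 1 difference per gene, no gene was matched to a member by its pattern.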

Additional observations from a re-analysis of the deposited data

How the results depend on the processing

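No paired analysis was possible because each group has 1 library. Single genes were judged by direction and by side of 2-fold, and counts by whether they stayed within 1.5 times the first value. Of 43 recomputed member changes, 36 kept both, 4 crossed 2-fold and 3 reversed sign. The 3 were near 0: with rescaled TPM TFR2 was at 0.019 and HFE at 0.046, and with the GC trend removed HFE was at 0.286. The 4 were SLC11A2 (-0.94 rescaled, -0.77 with the GC trend removed) and HP (-1.89 with a pseudocount of 0.1 TPM, -2.33 as a plain ratio). The members past 2-fold numbered 2 at first and 1 (TFRC) with rescaled TPM and with the GC trend removed. They numbered 3 with a pseudocount of 0.1 TPM and as a plain ratio, and 2 with at least 5 TPM, which 6 members reached, and with no minimum. Over all genes, 2154 passed 2-fold at first, 3482 with a pseudocount of 0.1 TPM and 3547 as a plain ratio. The number was 2062 with rescaled TPM and 1788 with the GC trend removed. Of the genes past 2-fold, 33.4% rose at first, 50.4% with rescaled TPM and 51.1% with the GC trend removed. Both settings centre the changes. The other iron genes past 2-fold numbered 11 at first and 7 with rescaled TPM and with the GC trend removed. TPM carry no depth, which limits genes near 1 TPM most (HFE, TFR2, SLC40A1 and HP among the members). The same limit holds for SMAD7 and HEPH, which were under 1 TPM in GDF1 cells.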

Other observations

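The alpha-globin genes, which were on the list of erythroid markers and encode a haemoglobin chain that haptoglobin captures, were listed in both libraries. HBA1 went from 41.5 to 20.0 TPM (log2 change -1.02) and HBA2 from 36.0 to 16.0 TPM (-1.12), and with rescaled TPM both were within 2-fold, at -0.82 and -0.93. With the GC trend removed both were past it, at -1.17 and -1.27. The pair are near-identical, so their reads cannot be told apart with certainty. HBB, the beta chain, was listed at 0.0001 TPM in both libraries, and ALAS2, the erythroid enzyme of haem synthesis, at 0.0001 TPM and 0.20 TPM.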
